A study of Mus musculus with 2 samples.

Results

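A set of 5 hairpins of the mouse miRNA annotation that are known to reach Dicer without being cut by Drosha was followed in small RNA of C2C12 cells. They were Mir320 and Mir484, whose precursors carry a cap, and Mir877, Mir702 and Mir1224, which are made from introns. The 5 genes were picked by symbol from the 2202 genes of the deposited tables. No filter on their reads was used, but earlier results of these data were known. C2C12 is a mouse myoblast line, derived per the labels from injured thigh muscle of C3H mice and obtained from ATCC. The 2 libraries, numbered as biological replicates 1 and 2, hold total RNA of under 30 nucleotides from this single line and form 1 group. No treatment, genotype change, time or culture stage is named for either, so no condition is compared. Nothing in this series removes Drosha, and the route by which each hairpin is made is background here, not a measurement.

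Most miRNAs are cut from a long primary transcript by the nuclear enzyme Drosha, bound to its partner Dgcr8, and the hairpin that is released is then cut by Dicer in the cytoplasm. A capped hairpin skips the first cut: RNA polymerase II starts at the hairpin's 5′ end and stops soon after it, and the short transcript leaves the nucleus with its cap through the export receptor Xpo1. A mirtron skips it too, because the spliceosome sets its ends: a short intron is excised, debranched and folds into the hairpin. A mirtron therefore depends on splicing of its host mRNA.

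Positions on mm10 were read from GENCODE M21, and the gene identifiers are those of the tables. Mir484 (ENSMUSG00000070074.1, chromosome 16, 14159626 to 14159692, plus strand) lies outside any annotated transcript on its strand. It starts 3649 bases before the nearest annotated start on that strand, of Nde1, a gene for a dynein-binding protein of the centrosome. On the other strand, an annotated start of Marf1 lies 359 bases away and points away from it, while a longer Marf1 transcript runs across it. Mir320 (ENSMUSG00000065528.1, chromosome 14, 70443510 to 70443591, plus strand) likewise lies in no annotated transcript of its strand. It starts 63 bases from the start of Polr3d, which encodes a subunit of RNA polymerase III and runs the opposite way.

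Each of the 3 mirtrons covers all or nearly all of a short intron. Mir877 (ENSMUSG00000077931.1, chromosome 17, 35960730 to 35960814, minus strand) and an 85-base intron of Abcf1, a gene for a translation factor of the ABC family, have the same first and last base. Mir1224 (ENSMUSG00000080669.1, chromosome 16, 20604452 to 20604536, plus strand) matches an 85-base intron of Vwa5b2 in the same way. Mir702 (ENSMUSG00000076240.1, chromosome 5, 136991433 to 136991541, plus strand) sits on a 102-base intron of Plod3, which encodes a collagen-modifying lysyl hydroxylase, but its annotated ends are shifted. The hairpin takes in 9 exonic bases before the intron and ends 2 bases before the intron does.

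RefSeq sequences (GRCm38.p6) were matched for 4 of the 5 genes, all but Mir320. The hairpins are printed because the ends of the introns can be seen in them. In the mirtrons, capitals mark the first 2 and the last 2 bases of the annotated intron, where the hairpin holds them. In Mir484, capitals mark the mature miRNA, bases 5 to 26 of the hairpin.
Mir877: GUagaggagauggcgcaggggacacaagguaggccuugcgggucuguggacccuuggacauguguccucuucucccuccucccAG
Mir1224: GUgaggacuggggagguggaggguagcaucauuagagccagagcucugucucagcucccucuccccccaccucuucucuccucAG
Mir702: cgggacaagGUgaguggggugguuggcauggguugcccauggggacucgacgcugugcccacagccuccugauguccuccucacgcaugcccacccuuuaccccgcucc
Mir484: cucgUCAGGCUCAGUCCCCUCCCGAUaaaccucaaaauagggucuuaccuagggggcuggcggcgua

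Hairpins that begin with GU and end with AG made up 30 of the 968 RefSeq hairpins whose symbol is in the tables, or 3.10%. Mir877 and Mir1224 are among them, and Mir702 and Mir484 are not. Such ends are usual where a hairpin has the ends of an intron. Of 17 hairpins with both ends within 5 bases of those of an annotated intron, 15 had them (88.2%), against 15 of the 951 others. The G+C content of the 4 hairpins was 61.2% for Mir877, 60% for Mir1224, 65.1% for Mir702 and 58.2% for Mir484. The median was 51.7% over the 968 and 60.5% over the 17. The folding energy per base of the 4 hairpins, computed with RNAfold, was -0.429 kcal/mol for Mir877, -0.504 for Mir1224, -0.435 for Mir702 and -0.367 for Mir484. Its median was -0.405 over the 968 and -0.432 over the 17. Of the 968, 15.1% had a lower energy per base than Mir1224 and 66.1% a lower one than Mir484.

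The 5p miRNAs of the mirtrons begin at the first base of the intron, so that their seed lies in the start of the splice donor. The seed, bases 2 to 8, is the stretch a miRNA pairs with in its targets, and it is in capitals here.
miR-877-5p: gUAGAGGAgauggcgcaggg
miR-1224-5p: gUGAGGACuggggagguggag
miR-702-5p: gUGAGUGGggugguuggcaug
miR-3102-5p: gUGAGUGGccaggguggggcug
miR-484: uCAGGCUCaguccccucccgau
Among 1738 mature miRNAs in the RefSeq table, 1 shares a seed with any of the 7 mature miRNAs of these genes. It is miR-3102-5p, with the seed UGAGUGG of miR-702-5p, and its gene Mir3102 also fills an intron. The counts are per hairpin and do not say which arm the reads came from.

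Reads that matched a miRNA gene in its own orientation numbered 27661907 in the first library and 15025315 in the second. Levels are given per 1000000 of these (CPM). The gene Mir21a alone took 23.1% of them in replicate 1 and 53.5% in replicate 2. Of the muscle markers, Mir206 had 2559 and 1028 CPM, Mir133b had 88.0 and 20.4 CPM, and 3 reads at most fell on each of the 4 Mir1a and Mir133a genes, whose reads cannot be placed between near-identical copies. Among markers of other cell types, Mir142 of blood cells had 215 and 122 CPM and Mir126a of endothelium 213 and 134 CPM, while Mir122 and Mir200c stayed under 10 CPM and Mir9-1 and Mir124a-1 had no read. Mir133b, Mir9-1 and Mir124a-1 also have near-identical copies, so the level of the first and the lack of reads on the others are uncertain in the same way. The part of other cells in the levels below was not tested, and in bulk RNA fewer cells with a miRNA and less of it per cell cannot be told apart. None of the 5 hairpins shares a stretch of 20 bases with another miRNA gene, and no read fell on the opposite strand of any of them.

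The capped hairpins were the abundant members. Mir484, whose miRNA is known as a repressor of the mitochondrial fission gene Fis1, was counted 75281 times in replicate 1 and 17379 times in replicate 2. These reads make 2721 CPM (exact 95% interval 2702 to 2741) and 1157 CPM (1140 to 1174), a mean of 1939 ± 1106 CPM (SD, n = 2). Mir320 had 22774 and 6085 reads, or 823 CPM (813 to 834) and 405 CPM (395 to 415), a mean of 614 ± 296 CPM (SD, n = 2). Replicate 1 was the higher library for both genes on this scale, and the lower value of Mir484 lay above the higher value of Mir320. Mir484 ranked 52 and Mir320 80 by mean CPM among the 2202 genes. Their means were 44.1 and 14.0 times the median of the 320 detected genes, 43.9 CPM. Detected means that neither library was below 1 CPM.

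The mirtrons were lower and unequal. Mir877 had 1824 and 566 reads, or 65.9 CPM (62.9 to 69.0) and 37.7 CPM (34.6 to 40.9), a mean of 51.8 ± 20 CPM (SD, n = 2). Mir702 had 460 and 201 reads, or 16.6 CPM (15.1 to 18.2) and 13.4 CPM (11.6 to 15.4), a mean of 15 ± 2.30 CPM (SD, n = 2). The values of the 2 genes did not overlap. Mir877 was close to the median detected gene, at 1.18 times it and rank 156, and Mir702 stood at 0.342 times it and rank 197. Mir1224 had 2 reads in replicate 1 and 1 read in replicate 2. That is 0.0723 CPM (0.00876 to 0.261) and 0.0666 CPM (0.00169 to 0.371), under the 0.108 and 0.200 CPM that a count of 0 still allows. Any count of 1 or 2 falls under these limits, so they do not show that the gene is silent, and both intervals leave out 0. No background was measured, and whether these few reads stand above one was not tested.

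**Figure D1:**
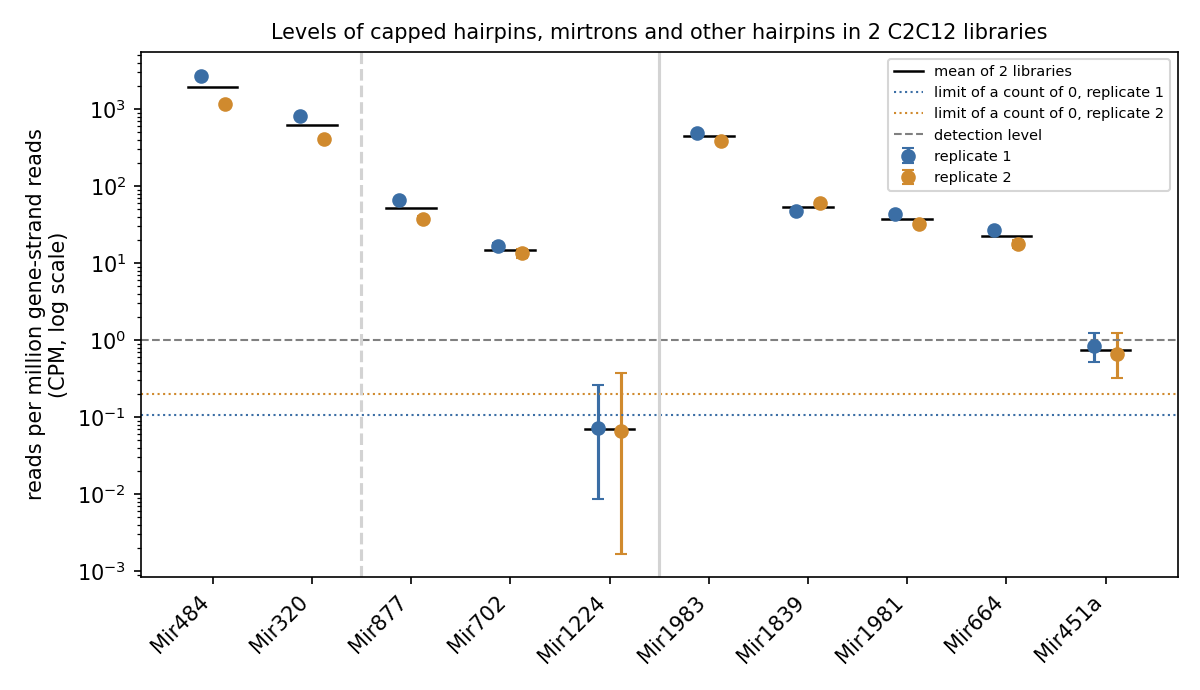
CPM on a log scale in replicate 1 (blue) and replicate 2 (orange) with exact 95% counting intervals, the mean of the 2 libraries (bar), the detection level (dashed) and the limits of a count of 0 (dotted). The capped Mir484 and Mir320 stand at the left, the mirtrons in the middle, with Mir1224 under both limits, and the other hairpins reported to skip Drosha or Dicer at the right.

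So 4 of the 5 members were detected (80.0%), where 14.5% of all genes of the tables were. The latter share includes 1398 genes without a read, and among the 1174 genes with a symbol that starts with Mir, 26.6% were detected. The order of the levels was Mir484, Mir320, Mir877, Mir702, Mir1224 in each library, and no neighbours in it had overlapping values. Per 100 bases of hairpin the order of mean CPM was the same, from 2894 CPM for Mir484 through 749 for Mir320 and 60.9 for Mir877 to 13.8 for Mir702. Together the 5 genes took 0.363% of the counted reads of replicate 1 and 0.161% of replicate 2. The capped hairpins held 98055 of these 100341 reads in replicate 1 and 23464 of 24232 in replicate 2.

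**Figure D2:**
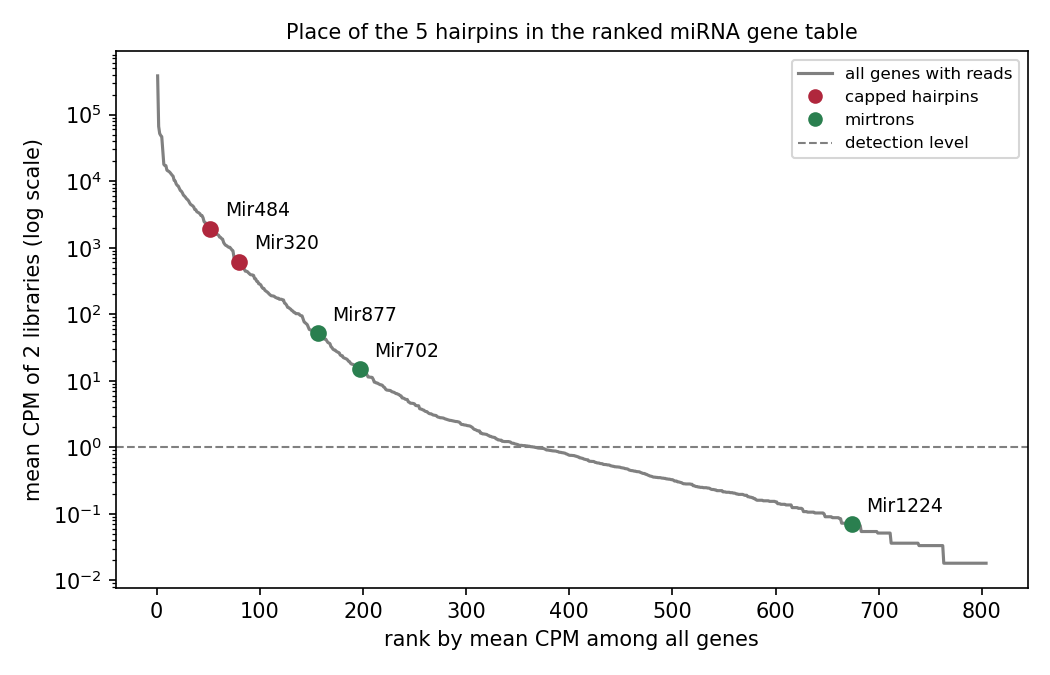
Mean CPM of the 2 libraries on a log scale against rank by mean CPM for all genes with reads (grey line). Mir484 at rank 52 and Mir320 at rank 80 (red) lie on the steep upper part, Mir877 and Mir702 (green) at ranks 156 and 197, and Mir1224 far below the detection level (dashed).

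Ratios between members within a library do not depend on how the libraries are scaled. Mir484 had 3.31 reads per read of Mir320 in replicate 1 (exact 95% interval 3.26 to 3.36) and 2.86 in replicate 2 (2.77 to 2.94). Mir320 had 12.5 reads per read of Mir877 (11.9 to 13.1) and 10.8 (9.86 to 11.7). Mir877 had 3.97 reads per read of Mir702 (3.58 to 4.4) and 2.82 (2.39 to 3.32). All 3 ratios were larger in replicate 1, so the more abundant gene of each pair led by more there. The capped hairpins summed to 42.9 reads per mirtron read (41.2 to 44.7) in replicate 1 and to 30.6 (28.4 to 32.9) in replicate 2. The first of these ratios was 1.40 times the second (1.29 to 1.53). The intervals hold the error of counting alone: copies made by amplification were not told apart, and with 1 library on each side the spread between cultures is not in them.

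**Figure D3:**
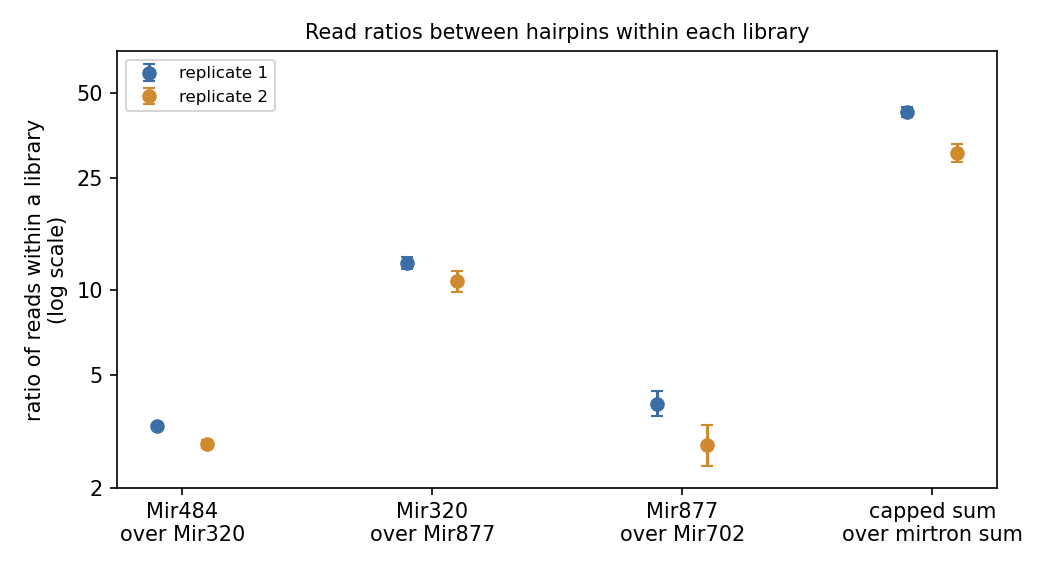
Reads of one hairpin per read of another within replicate 1 (blue) and replicate 2 (orange), on a log scale with exact 95% counting intervals. Each of the 4 ratios is higher in replicate 1, and the capped sum over the mirtron sum goes from 42.9 to 30.6.

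Between the libraries, the capped hairpins were lower in replicate 2 and Mir702 was higher after TMM scaling, which sets the bulk of genes equal. The pair of counts of each of the 556 genes with at least 10 reads was put to an exact binomial test, two-sided, with Benjamini-Hochberg adjustment. The test sets these libraries against each other, not conditions. Mir484 had a log2 ratio of replicate 2 over replicate 1 of -0.34 (counting SE 0.012, adjusted p = 2.03e-176, exact binomial test). Mir320 had one of -0.13 (counting SE 0.021, adjusted p = 4.70e-09, exact binomial test). Both were also lower in replicate 2, and called, with DESeq2 size factors (-0.40 and -0.19) and with library totals (-1.23 and -1.02).

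Of the mirtrons, Mir702 alone was called after TMM scaling, and its direction rests on that scaling. Mir702 had a log2 ratio of 0.59 (counting SE 0.12, adjusted p = 1.09e-05, exact binomial test), and of 0.52 with DESeq2 size factors. Mir877 had one of 0.09 (counting SE 0.069, adjusted p = 0.338, exact binomial test) and was not called, nor with DESeq2 size factors, at 0.03, and the median of all tested genes was also 0.09. By library totals both were called lower in replicate 2, with -0.31 for Mir702 and -0.81 for Mir877. TMM moved every log2 ratio up by 0.90 against library totals. Mir1224 had too few reads to test.

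These calls stand among many. In all, 231 of 556 genes were called (41.5%), 137 higher (24.6%) and 94 lower (16.9%) in replicate 2, beside 1 higher and 2 lower of the 4 tested members. By library totals the table had 26 higher (4.68%) and 304 lower (54.7%), and all 4 tested members were lower. With DESeq2 size factors 124 were higher (22.3%) and 107 lower (19.2%), and again 1 member was higher and 2 were lower. The median log2 ratio was 0.09 over all tested genes and -0.02 over the 4 members.

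Against genes of like level, within 4-fold of the member's mean CPM, each member's ratio lay within 1 SD of the median. For Mir484, 61 such genes had a median log2 ratio of 0.00 with an SD of 0.48, 57 of them were called, and 9 lay lower than Mir484. For Mir320, 76 such genes had a median of 0.11 and an SD of 0.79, and 21 lay lower. For Mir877 it was 94 genes with a median of 0.15 and an SD of 0.97, of which 44 lay lower. For Mir702 it was 108 genes with a median of 0.20 and an SD of 0.92, of which 85 lay lower. Of the like-level genes of Mir320, Mir877 and Mir702, 69, 74 and 61 were called in turn.

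**Figure D4:**
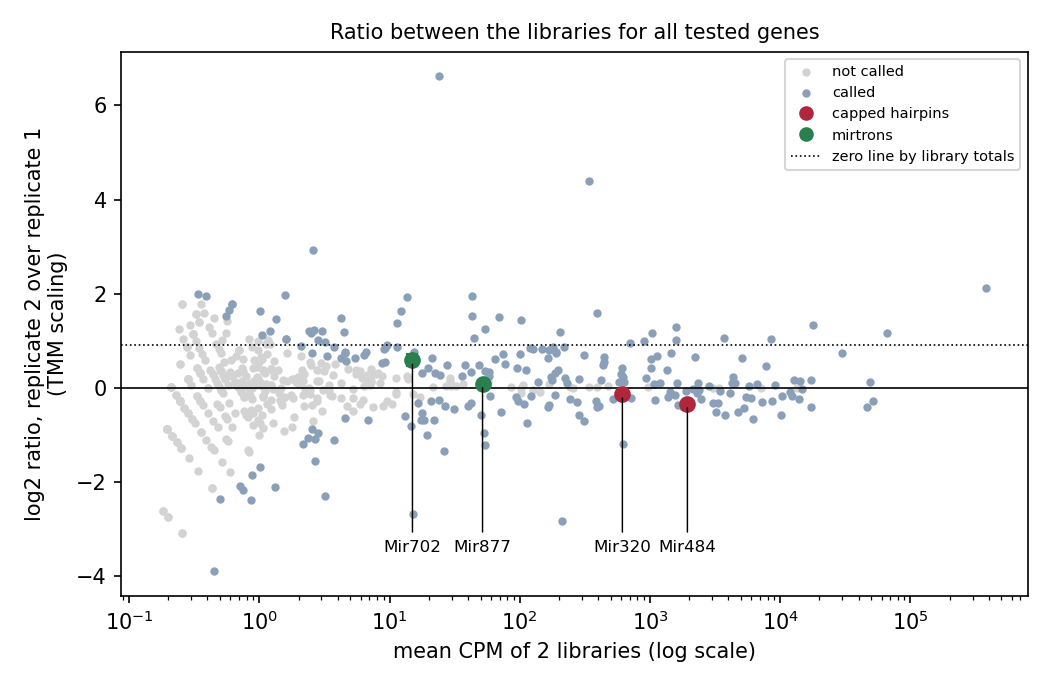
Log2 ratio of replicate 2 over replicate 1 after TMM scaling against mean CPM (log scale) for the 556 tested genes, called in blue-grey and not called in light grey. The capped Mir484 and Mir320 (red) lie just under 0 and the mirtrons Mir877 and Mir702 (green) above it, and all 4 lie under the dotted line, which is the zero of library totals.

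Among genes with a symbol that starts with Mir, the 2 nearest to each detected member were taken as the most like it. Nearness was by distance of log2(CPM + 0.5) over the 2 libraries, a likeness that holds only level and ratio. For Mir484 the 2 nearest were Mir196a-2, at 2667 and 1099 CPM (distance 0.08), and Mir324, at 2492 and 1276 CPM (0.19). For Mir320 they were Mir34b, at 729 and 424 CPM (0.19), and Mir181a-1, at 793 and 466 CPM (0.21). For Mir877 they were Mir30c-1, at 65.5 and 35.5 CPM (0.08), and Mir669o, at 71.1 and 42.1 CPM (0.19). For Mir702 they were Mir3109, at 16.3 and 12.6 CPM (0.09), and Mir138-2, at 16.0 and 14.6 CPM (0.13). Mir196a-2, Mir181a-1, Mir30c-1, Mir669o and Mir138-2 each have 20 bases or more in common with other miRNA genes, so their own levels are uncertain.

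Mirtron-like genes were also sought by position alone. Of the 2202 genes, 23 have both ends within 5 bases of the ends of an annotated intron, 22 of them exactly, with lengths from 67 to 137 bases. Mir877 and Mir1224 are among them. Mir702 falls outside this rule and inside a rule of 10 bases, which takes in 29 genes. Of the 23, 6 were detected (26.1%) and 5 had no read in either library. Together they took 0.0241% of the reads of replicate 1 and 0.0162% of replicate 2. Their mature miRNAs follow the intron's ends: of 19 such genes with a mature RefSeq sequence, 16 have one that begins at the first base of the intron and 11 have one that ends at its last base. The rule itself fixes the ends of the hairpins but not those of the mature miRNAs. Both are annotated positions, not reads of these libraries. How often mature miRNAs of other hairpins lie at a hairpin's end was not counted.

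Mir877 was the second in level of these introns, after Mir3102. Mir3102 fills a 104-base intron of Arhgef17 and had 3063 and 1197 reads, or 111 and 79.7 CPM. An annotated exon of Arhgef17 also overlaps it, and it has 4 mature miRNAs in RefSeq where Mir877 has 2, so the 2 genes are not fully alike. Reads on Mir3102 exceeded those on Mir877 in both libraries. Mir1981, in an 82-base intron of Marc2, a gene for a mitochondrial reductase, followed with 1192 and 486 reads, or 43.1 and 32.3 CPM. Its hairpin is printed as a detected match to Mir877 and Mir1224, with capitals as above.
Mir1981: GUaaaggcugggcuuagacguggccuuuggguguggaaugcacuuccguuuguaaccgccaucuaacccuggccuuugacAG
Mir6944, in an intron of the drebrin gene Dbn1, had 9.80 and 7.59 CPM, and Mir7018, in an intron of the perlecan gene Hspg2, had 2.75 and 1.60 CPM. The values of Mir877 and Mir1981 overlapped, though Mir877 was the higher within each library, and those of Mir1981 and Mir6944 did not. Of the 12 tested genes that fill an intron, 3 were called higher (Mir3102, Mir1981 and Mir6944) and 1 lower in replicate 2 after TMM scaling, beside 24.6% higher and 16.9% lower over all tested genes. By library totals 0 were called higher and 9 lower, beside 4.68% and 54.7% over all. The lower one, named after its values were seen, was Mir7070, with 44 and 2 reads. Mir1224 was 1 of the 18 genes with any read.

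**Figure D5:**
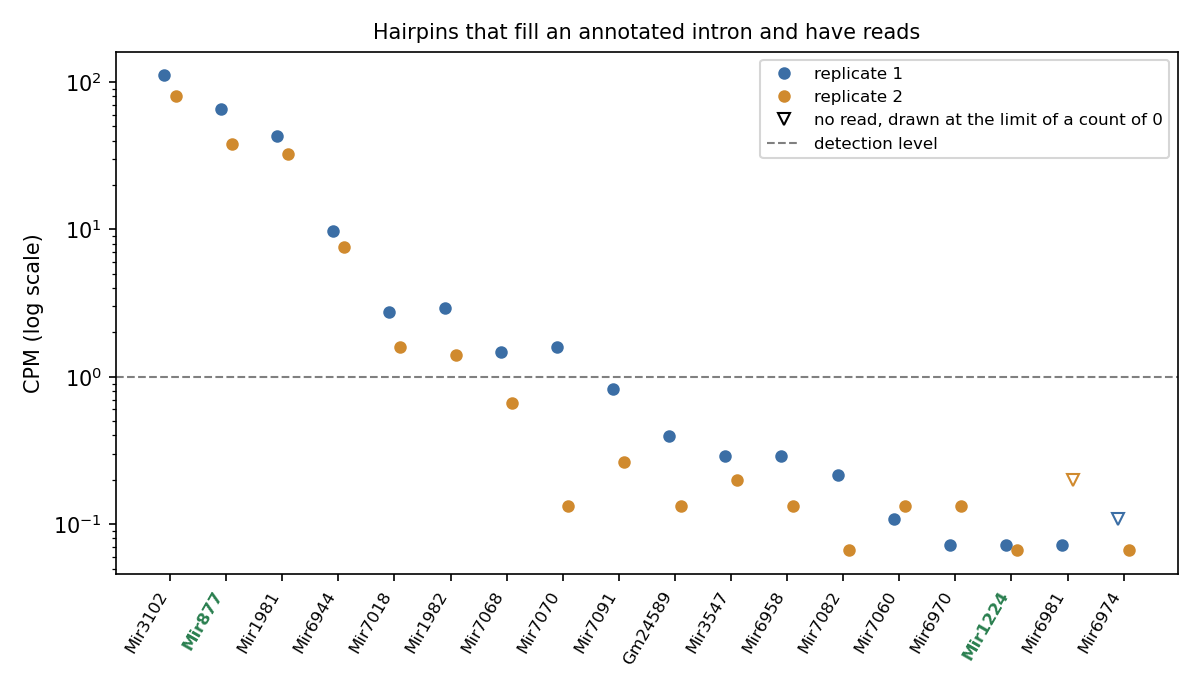
CPM on a log scale in replicate 1 (blue) and replicate 2 (orange) for the 18 hairpins that fill an annotated intron and have reads, ordered by mean CPM, with Mir877 and Mir1224 named in green. Mir3102, Mir877 and Mir1981 lead, 6 genes are above the detection level (dashed) in both libraries, and open triangles stand for no read and lie at the limit of a count of 0.

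Other hairpins reported to skip Drosha, or in 1 case Dicer, spanned much of the same range of levels. A list of 6 symbols matched 5 genes (Mir1225 was not matched), of which 4 were detected. Mir1983, whose hairpin derives from a tRNA gene, had 13714 and 5870 reads, or 496 and 391 CPM, which overlapped the values of Mir320. Within each library Mir320 was the higher, at 823 and 405 CPM. Mir1839, which overlaps a small Cajal body RNA of the same name, had 47.6 and 60.9 CPM, and Mir664, which overlaps the small nucleolar RNA Snora36b, had 26.8 and 17.8 CPM. Reads of such a host RNA and of the miRNA cannot be told apart in these counts. Mir451a, which Drosha cuts but Argonaute matures in place of Dicer, had 23 and 10 reads, or 0.831 and 0.666 CPM, and was not detected.

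After TMM scaling Mir1839 had a log2 ratio of 1.25, Mir1983 of 0.55, Mir1981 of 0.48 and Mir664 of 0.31. These 4 of the 5 tested genes of the list were called higher in replicate 2, where 24.6% of all tested genes were, and were so with DESeq2 size factors too (22.3% of all). The share over all tested genes includes genes with few reads. Among genes within 4-fold of their mean CPM, most were called in one direction or the other. The numbers were 67 of 76 for Mir1983, 73 of 94 for Mir1839, 63 of 88 for Mir1981 and 57 of 95 for Mir664. Mir451a, at 0.62, was not called (adjusted p = 0.482, exact binomial test). By library totals Mir1839 was called higher (4.68% of all) and Mir1983, Mir1981 and Mir664 lower (54.7% of all). Mir702 and Mir877, the latter at 0.09 and not called, thus had their sign in common with these genes under TMM. So did the median of all tested genes, also 0.09, and the capped hairpins did not. Whether the members differ from this list was not tested.

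The capped hairpins have few counterparts by position. A total of 25 genes lie outside any annotated transcript of their strand and start within 500 bases of a protein-coding start on the other strand that points away from them. This window was chosen after the positions of Mir484 and Mir320 were known. Of the 25 genes, 5 were detected and 15 had no read. Beside Mir484 and Mir320 the detected ones, named after their values were seen, were Mir126b at 9.04 and 5.32 CPM, the unnamed hairpin Gm28033 at 4.77 and 4.33 CPM and Mir1934 at 4.74 and 2.26 CPM. All 25 genes together held 98595 reads in replicate 1 and 23658 in replicate 2, of which 98055 and 23464 were those of Mir484 and Mir320.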

How the data were processed

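The authors deposited, for each of the 2 libraries, whole-number read counts per miRNA gene for either strand, the gene's strand and the opposite strand. The build, mm10, and the annotation, GENCODE M21, are those of the deposited readme files, and adapters were trimmed, going by a protocol linked in the labels. No aligner or counting program is named in the labels or readme files. Rows that name no gene (unmapped, multi-mapping, ambiguous and unassigned reads) held 49.7% of the reads of replicate 1 and 38.8% of replicate 2 and stayed out of totals and tests.

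Gene-strand counts were scaled to their total per library. Libraries were compared after TMM scaling (edgeR 4.0.16, R 4.3.3) with exact binomial tests (scipy 1.17.1), a prior count of 0.5 for log2 ratios, a minimum of 10 counts and an adjusted p threshold of 0.05. DESeq2 1.42.0 size factors, library totals, either-strand counts, other count and detection levels and other denominators were the alternatives. A quasi-likelihood fit needs replicates on each side and was not possible. The labels give the libraries as biological replicates from separate biosamples of 1 donor line, with no word on when each was grown, so part of their spread may be technical.

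Shares carry exact (Clopper-Pearson) 95% intervals, and a count of 0 allows 3 counts. Hairpins were folded with RNAfold (ViennaRNA 2.7.2). The test was first tested on simulated counts that held the error of counting alone. It called 0 of 556 genes, of which 532 had enough counts to be tested, when no gene was changed. In a second run it called 4 of 356 unchanged genes, of which 340 were tested. Of 100 genes each with true folds of 0.5 and 2, it called 58.0% and 73.0%, with 94 and 99 of them tested. Spread between cultures was not simulated, so the error rate of the test under such spread is not known.

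Named genes were the 5 members, the list of other hairpins, the 5 highest hairpins that fill an intron, the 2 nearest genes of each detected member and Mir21a. The members and lists were chosen with earlier results of these data known.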

Additional observations from a re-analysis of the deposited data

Results flagged for a closer look

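Multi-mapping reads and opposite-strand counts were many. Replicate 1 held 18382947 reads that mapped to several places, and replicate 2 held 5599235. Opposite-strand counts were 843574 in replicate 1 and 244513 in replicate 2, above what a count of 0 allows. None of them lay on Mir320, Mir484, Mir877, Mir702 or Mir1224. Opposite-strand counts are another counting of the same library, so they were not added to the gene-strand counts. With either-strand counts the mean of Mir320 rose from 614 to 630 CPM, so the either-strand total was the lower one. How many opposite-strand reads were also gene-strand reads of an overlapping gene was not counted. No control libraries were analysed here, and which genes the multi-mapping reads belong to was not tested.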

How the results depend on the processing

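When libraries were scaled by their totals, the log2 ratio of Mir877 turned from 0.09 to -0.81 (adjusted p = 2.40e-33, exact binomial test) and that of Mir702 from 0.59 to -0.31 (adjusted p = 0.0189, exact binomial test). Over the other alternatives Mir877 stayed between 0.03 and 0.09 with adjusted p between 0.338 and 0.853, and Mir702 between 0.52 and 0.59 and called. Mir484 and Mir320 were called lower in replicate 2 under every alternative run. Without Mir21a in the denominator the mean levels rose to 3013 CPM for Mir484, 971 for Mir320, 83.4 for Mir877, 25.2 for Mir702 and 0.119 for Mir1224. With all reads as the denominator they were 1038 for Mir484, 331 for Mir320, 28.1 for Mir877, 8.27 for Mir702 and 0.0385 for Mir1224. The order of the 5 members was kept under both. The capped sum over the mirtron sum was 30.6 to 42.9 with either replicate left out, and the alternatives run for the pair ratios cannot show whether they are stable. The same number of members, 4, was detected at 0.5 and at 5 CPM. The number of genes called lay between 217 and 330. The hairpins that fill an intron and were detected numbered 4 to 9 over the alternatives. No paired analysis was possible because there is a single group, and no ratio between the libraries exists without either replicate. Depth limits Mir1224, which rests on 3 reads in all, and no library of another condition sets a background.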

Other observations

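Detected genes were also counted by position in a host gene, without a test between the classes and beside 14.5% detected over all 2202 genes. Of 893 hairpins inside an intron but not filling it, 176 were detected (19.7%), with a median of 55.4 CPM among those detected. Of 72 hairpins that start within 50 bases of an annotated transcript start on their strand, 13 were detected (18.1%), with a median of 15.2 CPM. Neither Mir320 nor Mir484 is among these 72, since the annotation holds no such start for them. Of the 1214 remaining hairpins, 125 were detected (10.3%). The hairpins that fill an intron, Mir877 and Mir1224 left out, had 5 detected of 21 (23.8%), with a median of 8.69 CPM. Among genes with a symbol that starts with Mir, the share detected was 28.6% of those that fill an intron and 26.6% of all.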
